A study of Rattus norvegicus with 20 samples.

Results

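The antioxidant and glutathione genes described here are the enzymes and small thiol proteins that remove superoxide and peroxides, make and use glutathione, or reduce protein disulfides. They were taken from the deposited table of expressed, annotated probe sets by gene symbol: glutathione transferases (Gst and Mgst), peroxiredoxins (Prdx), glutathione peroxidases (Gpx), thioredoxins, their reductases and their relatives (Txn), glutaredoxins (Glrx), superoxide dismutases (Sod1 to Sod3), the subunits of glutamate-cysteine ligase (Gclc, Gclm), quinone reductases (Nqo), heme oxygenases (Hmox), catalase (Cat) and sulfiredoxin (Srxn). Txnip, an inhibitor of thioredoxin, was left out, as was 1 probe set assigned to more than 1 gene. The rule gave 48 probe sets of 36 genes, of 17243 probe sets in the table and 31042 on the array without its control probe sets. Of the 36 genes, 27 had 1 probe set and 9 had several. A probe set entered the table only if, per the file header, it was called present in 10 of 20 arrays, so a gene present in the arrays of a single condition could enter through that condition. No sulfiredoxin, Sod3 or Hmox1 probe set was among the members.

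RNA was measured on 20 Affymetrix rat arrays in cultured subplate neurons, a largely transient population that lies under the developing cortical plate. Cells came from the posterior neocortex of rat embryos at day 17, were selected with a dish-bound antibody against the p75 neurotrophin receptor, and were grown on coverslips without serum in Neurobasal medium with B27 supplement. The 4 groups were coculture for 24 h, control for 24 h, coculture for 96 h and control for 96 h, with 5 biological replicates each. In coculture the coverslip stood on wax spacers over a dense feeder layer of cortical cells, the cells that had not adhered in the panning, without touching it; in control it stood over a cell-free well with the same spacers. All groups shared the panning and the medium, and the RNA of an array generally came from 6 pooled coverslips, of which 100 ng went through 2 rounds of amplification. The feeder-induced culture is known from the labels as a model of synapse formation, and the comparisons ask which transcripts differ with the feeder layer and whether they differ after 24 h or after 96 h. In such bulk RNA, fewer cells of a type and less RNA per cell cannot be told apart.

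Superoxide made by mitochondria and oxidases is turned into hydrogen peroxide by the superoxide dismutases, and hydrogen peroxide is removed by catalase, by the glutathione peroxidases at the cost of glutathione, and by the peroxiredoxins at the cost of thioredoxin. Glutathione is made from cysteine by glutamate-cysteine ligase and glutathione synthetase, and NADPH keeps both glutathione and thioredoxin reduced. Many of these genes are targets of the transcription factor NRF2, which binds the antioxidant response element. In brain, NRF2 activity and glutathione supply are known to be higher in astrocytes than in neurons, which depend on astrocytes for cysteine.

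RefSeq promoter windows, from 250 bases before to 50 after a start site (assembly GRCr8, which the arrays do not refer to), were found for 32 of the 36 genes, as 39 windows; none was matched for Mgst2, Pdia6, Prdx6 and Tmx1. The core of the antioxidant response element, TGACNNNGC, was searched on both strands, where it reads GCNNNGTCA on the opposite strand. It stood in 11 of the 39 windows (28.2%), against 4038 of all 33469 windows (12.1%), and these 11 windows belonged to 11 genes, Gclm, Gstm5, Gstm7, Hmox2, Prdx1, Prdx4, Prdx5, Sod2, Txndc17, Txndc5 and Txnrd1. Printed here are the 250 bases before the start of 5 members on which the results turn, with the core in capitals: Gclm, a textbook NRF2 target whose core in the window was GCTTAGTCA, Sod2 and Gstm7, which were lower in coculture at 96 h and hold the core, Txn2, which was lower without it, and Gsta4, which was higher without it. Absence from a window says only that these letters are not in it.
Gclm, chr2:213031885-213032134, plus strand: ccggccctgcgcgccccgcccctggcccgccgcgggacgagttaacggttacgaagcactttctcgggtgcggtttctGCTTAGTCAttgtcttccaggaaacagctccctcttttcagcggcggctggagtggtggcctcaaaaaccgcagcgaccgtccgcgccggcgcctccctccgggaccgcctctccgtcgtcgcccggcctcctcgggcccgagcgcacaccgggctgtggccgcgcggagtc
Sod2, chr1:50050169-50050418, minus strand: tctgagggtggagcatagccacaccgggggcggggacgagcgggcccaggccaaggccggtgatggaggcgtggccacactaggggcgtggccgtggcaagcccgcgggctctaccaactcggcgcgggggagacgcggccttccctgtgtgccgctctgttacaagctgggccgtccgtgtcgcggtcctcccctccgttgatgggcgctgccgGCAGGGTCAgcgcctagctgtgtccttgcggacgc
Gstm7, chr2:198260320-198260569, minus strand: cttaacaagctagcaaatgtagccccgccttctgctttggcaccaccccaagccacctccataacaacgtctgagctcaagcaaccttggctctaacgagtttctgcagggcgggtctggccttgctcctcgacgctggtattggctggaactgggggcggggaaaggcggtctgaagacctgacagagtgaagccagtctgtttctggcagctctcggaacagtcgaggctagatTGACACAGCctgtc
Txn2, chr7:111390941-111391190, minus strand: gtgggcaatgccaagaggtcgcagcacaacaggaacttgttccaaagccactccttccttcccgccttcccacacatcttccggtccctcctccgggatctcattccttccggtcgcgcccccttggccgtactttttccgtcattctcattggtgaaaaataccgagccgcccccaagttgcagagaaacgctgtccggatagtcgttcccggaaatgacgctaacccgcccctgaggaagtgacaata
Gsta4, chr8:87947015-87947264, plus strand: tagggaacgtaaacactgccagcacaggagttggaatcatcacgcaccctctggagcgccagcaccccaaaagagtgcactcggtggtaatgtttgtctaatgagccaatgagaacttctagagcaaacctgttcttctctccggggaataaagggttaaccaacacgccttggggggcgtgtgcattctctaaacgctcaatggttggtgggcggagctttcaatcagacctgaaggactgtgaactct
The first base of the core lay 172 bases before the start in Gclm, 35 in Sod2 and 14 in Gstm7, on the minus, minus and plus strand of the window as written. A match is a description of the letters and shows no binding.

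The deposited values are ratios of each array to the median of that probe set over the 20 arrays, so that a ratio of 1 is the median and levels of different genes cannot be ranked. Changes are differences of mean log2 ratios, coculture minus control unless stated, with the standard error of a limma fit over all 20 arrays, and a change was called at a Benjamini-Hochberg adjusted p under 0.05 over 31042 probe sets; adjusted p-values below are from this fit unless another is named. Arrays numbered alike across the groups deviated together, so a second fit with the replicate number as a block is given where it changes the call of a value printed here. The number of arrays limits the precision.

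Some arrays stood apart from the rest. The interquartile range of log2 ratios was 1.27 and 1.12 in the cocultures of replicate 5 at 96 h and 24 h, against 0.19 to 0.71 in the other 18 arrays. The spike-in hybridisation controls (18 probe sets) were higher in coculture than in control in all 5 same-numbered pairs at both times, with a mean difference of 1.33 log2 units at 96 h. Markers of other cells also differed at 96 h: 7 of 10 measured astrocyte markers, 6 of 6 of radial glia and progenitors and 3 of 5 of the oligodendrocyte lineage were higher in coculture, while 9 listed microglial markers had no named probe set in the expressed table. In the same order, the counts higher at 24 h were 4 of 10, 6 of 6 and 3 of 5, against 2.78% of named genes. Of endothelial or pericyte markers 1 was measured and of meningeal fibroblast markers 2, and in each list 1 was higher at 96 h. The mean log2 ratio of the astrocyte list was 0.54 to 1.23 in coculture and -0.63 to -0.43 in control at 96 h, and 0.08 to 0.90 and -0.64 to -0.06 at 24 h; that of the radial glia list was 0.69 to 1.24 in coculture and -1.88 to -1.43 in control at 96 h. All 10 listed neuronal markers were measured, of which 1 was higher and 4 were lower at 96 h, and of 4 measured subplate markers 1 was lower. Over all 8373 named genes 7.44% were higher and 41.1% lower at 96 h. The share of falls among neuronal and subplate markers was thus near or below that of all genes. The part of these differences in the results on the members was not tested. A fit with the hybridisation controls is given below, but it cannot separate them from coculture.

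After 96 h of coculture most of the antioxidant genes that changed were lower, among them both subunits of the enzyme that makes glutathione, both superoxide dismutases, both glutathione peroxidases and both thioredoxins. Of the 48 probe sets, 25 (52.1%) were lower and 3 (6.25%) were higher, against 30% and 8.52% of the 17191 expressed probe sets that are no array controls. The 25 stood for 23 genes and the 3 for 3 other genes, while 10 genes had no called probe set. With the hybridisation controls as a covariate, given below, 3 of the 25 falls kept their call, those of Sod2, Txn2 and Gstm7. The median change was -0.48 among the members and -0.26 among the expressed probe sets, and 40 of 48 members were below 0. Expressed probe sets as a whole were thus shifted downward too. The groups did not overlap for 11 members (22.9%), all lower in coculture, against 18.1% of expressed probe sets, so the share without overlap was close to the background. Between same-numbered cultures, 32 members (66.7%) were lower in all 5 pairs and 2 higher, against 41.2% and 13.9% of expressed probe sets.

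After 24 h the only call among the members was the rise of the glutathione transferase Gsta4, 1 of 48 (2.08%) against 1.79% of expressed probe sets called higher. No member was called lower, where 3.48% of expressed probe sets were. Of the 48 members 36 were below 0, with a median of -0.21 against -0.13 among expressed probe sets. Of those below 0, 11 had an unadjusted limma p under 0.05. Expressed probe sets were not counted at an unadjusted p under 0.05, here or below, so such counts have no background. With the replicate number as a block, 17 members (35.4%) were lower and 2 (4.17%, Gsta4 and Prdx6) were higher at 24 h, against 27.2% and 10.9% of expressed probe sets. The blocked counts at 96 h were 32 lower and 5 higher, against 47.1% and 16.8% of expressed probe sets, and kept all 28 calls.

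**Figure D1:**
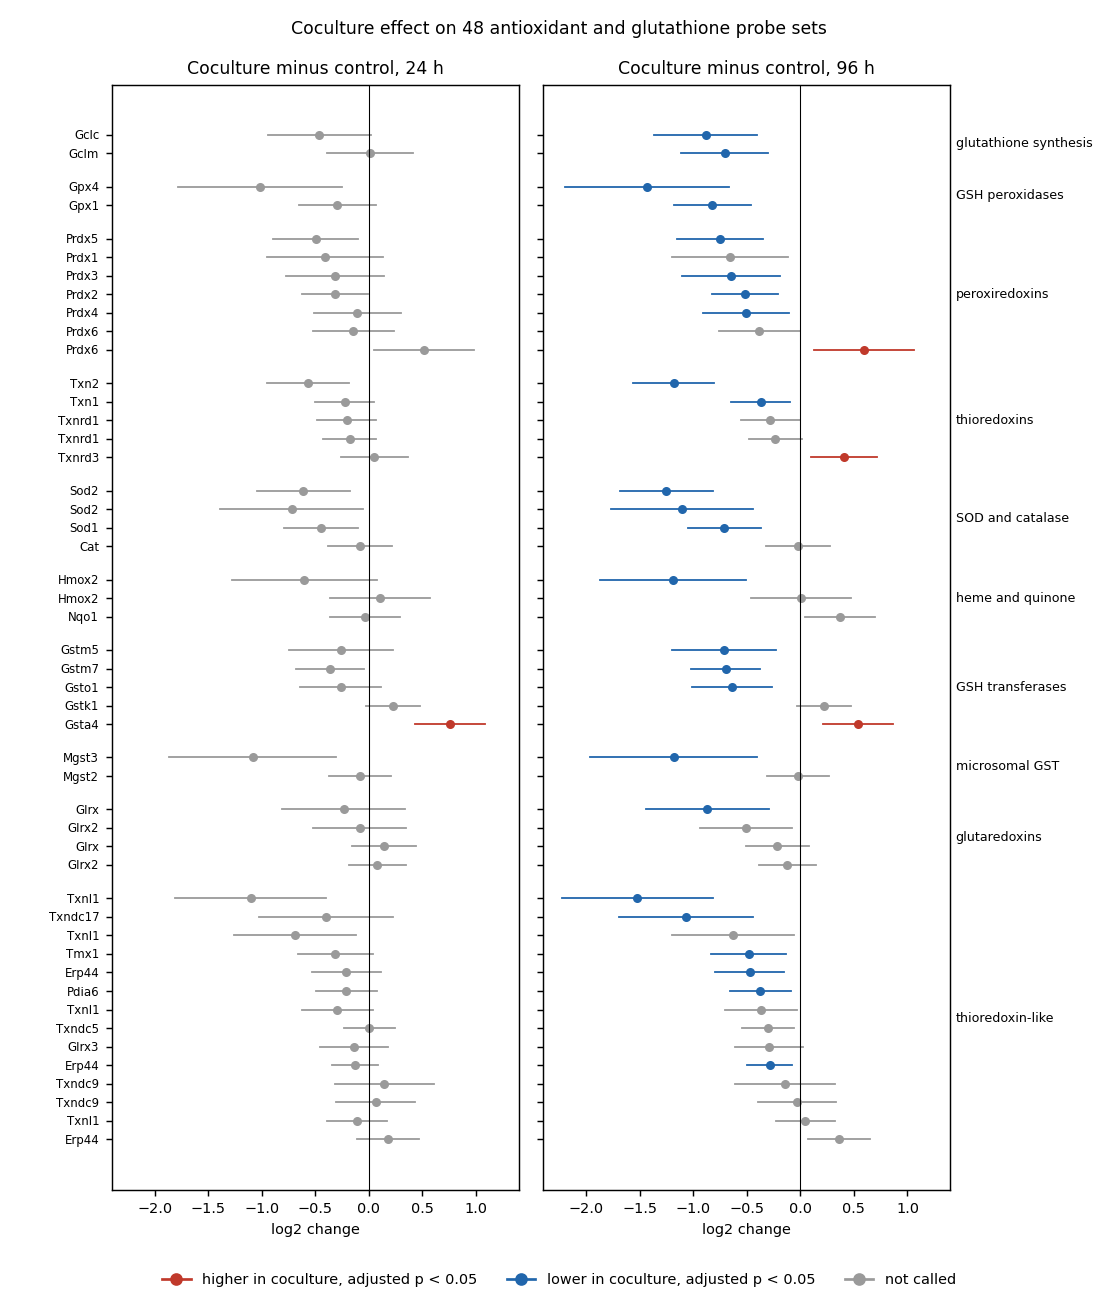
Change of each of the 48 member probe sets, coculture minus control, at 24 h (left) and 96 h (right), in log2 units with the 95% interval of the limma fit, grouped by role. At 96 h 25 probe sets were called lower (blue) and 3 higher (red); at 24 h only Gsta4 was called.

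Both subunits of glutamate-cysteine ligase, the rate-limiting enzyme of glutathione synthesis, fell at 96 h, but neither was called with the hybridisation covariate. Gclc, the catalytic subunit, had ratios of 0.507, 1.005, 0.955, 0.727 and 0.516 in the 5 cocultures at 96 h (replicates 1 to 5 here and below), against 1.30, 1.55, 1.46, 1.69 and 0.786 in the controls. Each coculture was below the control of its number, but the groups overlapped through the low control of replicate 5, and the change was -0.88 ± 0.23 (adjusted p = 0.00962). At 24 h Gclc changed by -0.46 ± 0.23 (adjusted p = 0.298), a fall only with the block (adjusted p = 0.0148).

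Gclm, the modifier subunit that raises the affinity of the catalytic one for glutamate, had ratios of 0.766, 0.967, 0.882, 0.679 and 0.437 in coculture at 96 h, against 1.18, 1.20, 1.20, 1.31 and 1.01 in control. The groups did not overlap, and the change was -0.71 ± 0.19 (adjusted p = 0.0124). At 24 h the values were 0.927, 1.14, 1.17, 0.990 and 0.729 in coculture and 0.750, 1.31, 1.07, 1.03 and 0.792 in control, which overlapped throughout, with a change of 0.0089 ± 0.19 (adjusted p = 0.983).

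The 2 glutathione peroxidases measured were lower at 96 h. Gpx4, which reduces lipid hydroperoxides within membranes and protects cells from ferroptosis, had ratios of 0.491, 1.03, 0.831, 0.686 and 0.334 in coculture, against 1.44, 2.16, 2.25, 2.03 and 0.973 in control. Every coculture was below its own control, but the groups overlapped through the control of replicate 5. The change was -1.43 ± 0.37 (adjusted p = 0.00878), a 2.7-fold fall. At 24 h the ratios were 0.584, 1.11, 0.957, 0.908 and 0.308 in coculture and 1.20, 1.95, 1.84, 1.90 and 0.718 in control, a change of -1.02 ± 0.37 (adjusted p = 0.146) that passed only with the block (adjusted p = 6.6e-07).

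Gpx1, the abundant cytosolic enzyme that reduces hydrogen peroxide, had ratios of 0.395, 0.529, 0.523, 0.549 and 0.568 in coculture at 96 h, against 0.595, 1.05, 0.941, 0.966 and 1.03 in control. All cocultures were below all controls and the lowest array of each group was replicate 1. The change was -0.82 ± 0.17 (adjusted p = 0.00251), and it was -0.07 (adjusted p = 0.887) after cyclic loess between arrays, which ended the call.

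Among the peroxiredoxins, which reduce peroxides with electrons from thioredoxin, 4 of 7 probe sets fell at 96 h and 1 rose. Of all expressed probe sets 30% fell and 8.52% rose, and 7 probe sets are too few to set against these shares. Prdx5, found in mitochondria, peroxisomes and cytosol, had ratios of 0.670, 0.995, 0.942, 0.817 and 0.602 in coculture, against 1.25, 1.41, 1.55, 1.48 and 1.02 in control, which did not overlap. Its change was -0.75 ± 0.19 (adjusted p = 0.00852). The mitochondrial Prdx3 changed by -0.65 ± 0.22 (adjusted p = 0.0317), the cytosolic Prdx2 by -0.52 ± 0.15 (adjusted p = 0.015) and Prdx4 of the endoplasmic reticulum by -0.51 ± 0.19 (adjusted p = 0.0491). Cytosolic Prdx1, an NRF2 target, was lower in all 5 pairs at a change of -0.66 ± 0.26 (adjusted p = 0.0575) and passed only with the block (adjusted p = 5.56e-05).

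The 2 probe sets of Prdx6, a peroxiredoxin with a single active cysteine and a phospholipase activity that is abundant in astrocytes, went apart. Probe set 1394574_at had ratios of 1.49, 0.902, 0.930, 1.08 and 1.72 in coculture at 96 h, against 0.809, 0.736, 0.709, 0.684 and 1.01 in control. It was higher in all 5 pairs, with the highest values in replicates 1 and 5, and the change was 0.60 ± 0.22 (adjusted p = 0.0471); at 24 h it was 0.51 ± 0.22 (adjusted p = 0.233), a rise only with the block (adjusted p = 0.00186). Probe set 1367969_at changed by -0.38 ± 0.18 (adjusted p = 0.101) at 96 h. The call for 1394574_at was lost when any of 13 of the 20 arrays was left out, with adjusted p up to 0.141.

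The superoxide dismutases fell and catalase showed no call. Sod2, the manganese enzyme of the mitochondrial matrix, had ratios of 0.692, 0.875, 0.746, 0.903 and 0.591 in coculture at 96 h, against 1.54, 2.38, 2.23, 1.83 and 1.23 in control, for probe set 1370172_at. All cocultures lay below all controls. The change was -1.25 ± 0.21 (adjusted p = 0.000403), a 2.38-fold fall. At 24 h the ratios were 0.766, 0.973, 1.03, 0.886 and 0.583 in coculture and 1.07, 1.53, 1.71, 1.34 and 0.882 in control, each coculture below its own control, with a change of -0.61 ± 0.21 (adjusted p = 0.119) that passed only with the block (adjusted p = 9.6e-05).

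The second Sod2 probe set, 1370173_at, changed by -1.10 ± 0.32 (adjusted p = 0.0164) at 96 h, and the call was lost without the coculture of replicate 5 (adjusted p = 0.0539). Sod1, the copper-zinc enzyme of the cytosol, had ratios of 0.719, 0.934, 0.889, 0.912 and 0.568 in coculture, against 1.22, 1.49, 1.35, 1.41 and 1.04 in control, and did not overlap between the groups. Its change was -0.71 ± 0.17 (adjusted p = 0.00506). Catalase, the peroxisomal enzyme that splits hydrogen peroxide, changed by -0.02 ± 0.14 (adjusted p = 0.898) at 96 h with a 95% interval of -0.32 to 0.27.

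**Figure D2:**
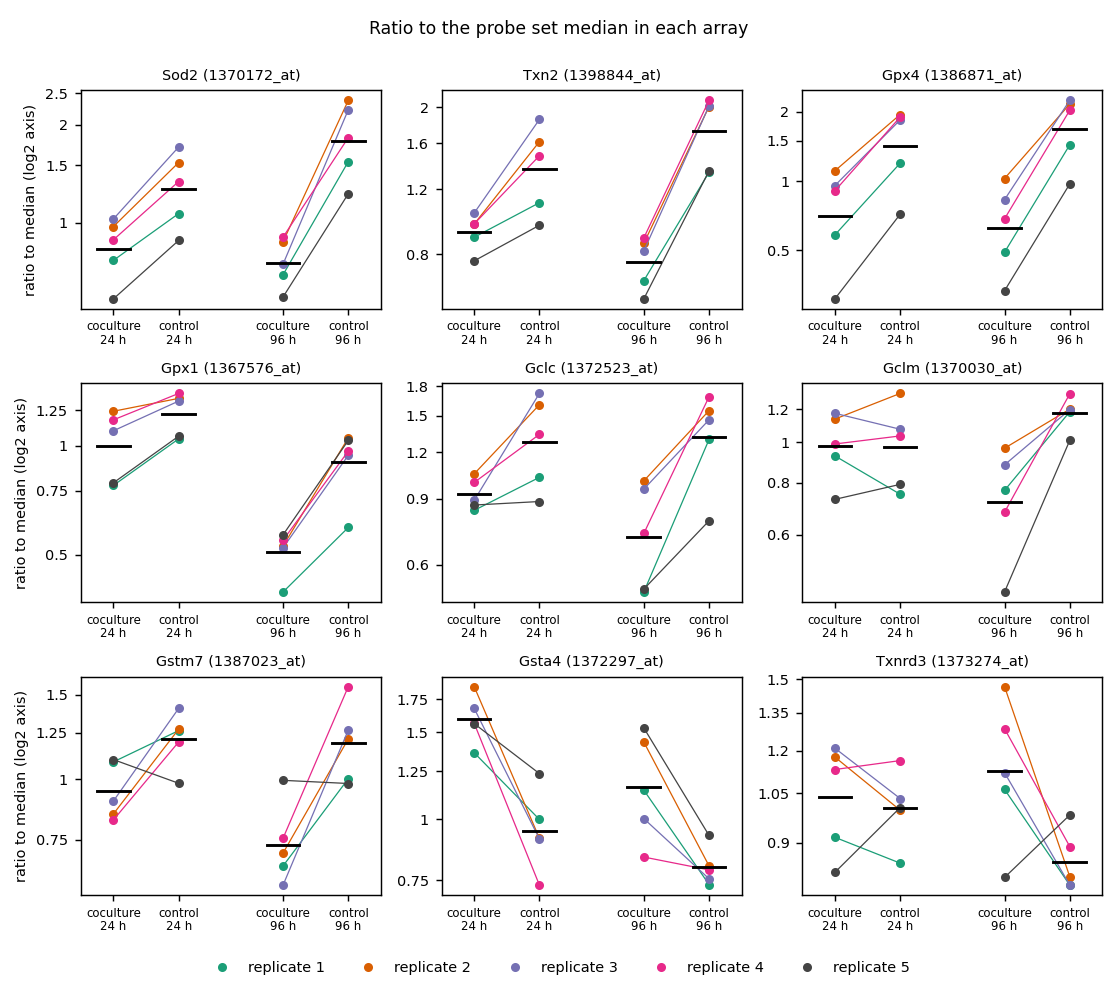
Ratio to the probe set median (log2 axis) in each of the 20 arrays for 9 members, with coculture left of control at each time. Lines join same-numbered replicates and black bars are geometric means; the cocultures of Sod2, Txn2, Gpx1 and Gclm lie below all controls at 96 h, while every Gsta4 coculture lies above its own control.

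Of the thioredoxin system, the mitochondrial member showed the largest fall. Txn2, which reduces Prdx3 and Prdx5 in mitochondria, had ratios of 0.678, 0.856, 0.816, 0.885 and 0.605 in coculture at 96 h, against 1.33, 2.01, 2.02, 2.09 and 1.35 in control. The groups were far apart, with the highest coculture at 0.885 and the lowest control at 1.33. The change was -1.18 ± 0.18 (adjusted p = 0.000207), a 2.27-fold fall with the smallest adjusted p among the 48 members.

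At 24 h Txn2 changed by -0.57 ± 0.18 (adjusted p = 0.0977) and passed only with the block (adjusted p = 0.000216). The cytosolic Txn1 had ratios of 0.769, 0.992, 0.934, 0.928 and 0.708 in coculture at 96 h, against 1.01, 1.27, 1.12, 1.17 and 1.01 in control, without overlap, and changed by -0.37 ± 0.13 (adjusted p = 0.0374). Txn1 thus had a smaller change than Txn2, but the difference between them was not tested. Of the reductases, which return thioredoxin to its reduced form with NADPH, the cytosolic Txnrd1 did not pass the test without the block, with changes of -0.28 ± 0.13 (adjusted p = 0.0973) in 1 probe set and of -0.23 ± 0.12 (adjusted p = 0.124) in the other; with the block the first was a fall (adjusted p = 0.0301) and the other was not called (adjusted p = 0.0725).

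Txnrd3, a reductase that also acts on glutathione and is best known from testis, had ratios of 1.06, 1.47, 1.12, 1.28 and 0.807 in coculture at 96 h, against 0.788, 0.809, 0.788, 0.889 and 0.981 in control. Replicates 1 to 4 were higher in coculture and replicate 5 was lower. The change was 0.41 ± 0.15 (adjusted p = 0.0426), and the call was lost when any of 9 single arrays was left out, with adjusted p up to 0.0932.

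Heme oxygenase 2, the constitutive enzyme that degrades heme in neurons, fell in 1 of its 2 probe sets. Probe set 1367903_at had ratios of 0.607, 1.002, 0.875, 0.953 and 0.411 in coculture at 96 h, against 1.52, 2.14, 2.16, 2.03 and 0.899 in control, overlapping through the control of replicate 5. The change was -1.19 ± 0.32 (adjusted p = 0.0122). The other probe set, 1384358_at, changed by 0.0047 ± 0.22 (adjusted p = 0.988). Nqo1, a quinone reductase and a classical NRF2 target, changed by 0.37 ± 0.16 (adjusted p = 0.0725), higher in 4 of 5 pairs, and was a rise only with the block (adjusted p = 0.0245).

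The glutathione transferases, which conjugate glutathione to reactive compounds, gave 3 falls and 1 rise at 96 h among 5 cytosolic or mitochondrial members. With 30% of expressed probe sets lower and 8.52% higher, these few calls cannot be read as a trait of the family. Gstm7 (deposited as Gstm3), of the mu class, had ratios of 0.661, 0.703, 0.603, 0.755 and 0.996 in coculture, against 1.004, 1.22, 1.27, 1.56 and 0.981 in control. Replicates 1 to 4 were lower in coculture and replicate 5 was not. The change was -0.70 ± 0.15 (adjusted p = 0.00336). Gstm5, another mu-class enzyme, changed by -0.71 ± 0.23 (adjusted p = 0.028); mu-class genes are similar in sequence, and cross-hybridisation between them was not tested.

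Gsto1, an omega-class enzyme with thiol transferase activity, changed by -0.64 ± 0.18 (adjusted p = 0.0143) at 96 h but by 0.02 (adjusted p = 0.962) after cyclic loess. Gstk1, of mitochondria and peroxisomes, changed by 0.22 ± 0.12 (adjusted p = 0.143). Gsta4, an alpha-class enzyme that clears the lipid peroxidation product hydroxynonenal, was the only member called at both times in the limma fit. At 24 h it had ratios of 1.36, 1.86, 1.68, 1.57 and 1.56 in coculture, against 0.998, 0.914, 0.911, 0.734 and 1.24 in control. The lowest coculture was above the highest control, and the change was 0.76 ± 0.16 (adjusted p = 0.00918).

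At 96 h the Gsta4 ratios were 1.15, 1.43, 1.002, 0.837 and 1.53 in coculture and 0.736, 0.803, 0.756, 0.788 and 0.926 in control. All 5 pairs were higher in coculture, but replicate 4 by little, so that the groups overlapped, and the change was 0.54 ± 0.16 (adjusted p = 0.0173). The call at 96 h was lost without the coculture of replicate 5 (adjusted p = 0.054), with the hybridisation covariate (adjusted p = 0.262) and after cyclic loess (0.09, adjusted p = 0.795). The rise at 24 h kept its call with the covariate (0.63, adjusted p = 0.021) and lost it after cyclic loess (0.52, adjusted p = 0.148).

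Of the microsomal transferases, membrane enzymes with transferase and peroxidase activity, Mgst3 fell at 96 h. Its ratios were 0.677, 1.17, 0.952, 0.921 and 0.457 in coculture, against 1.63, 2.35, 2.45, 2.16 and 0.936 in control, with replicate 5 lowest in both groups and an overlap through it. The change was -1.18 ± 0.37 (adjusted p = 0.0244), and leaving out any of 5 arrays ended the call, with adjusted p up to 0.0769. Mgst2 changed by -0.02 ± 0.14 (adjusted p = 0.904).

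Glutaredoxins, which reduce protein disulfides with glutathione, gave 1 call among 4 probe sets, a fall. This share was below the 30% of expressed probe sets called lower at 96 h. Probe set 1367705_at of the cytosolic Glrx (deposited as Glrx1) had ratios of 0.855, 1.15, 0.883, 0.652 and 0.692 in coculture at 96 h, against 1.31, 1.86, 1.97, 1.87 and 0.886 in control. The change was -0.87 ± 0.28 (adjusted p = 0.0244), lost when any of 5 arrays was left out (adjusted p up to 0.0668), while the second probe set, 1386908_at, changed by -0.21 ± 0.14 (adjusted p = 0.222). The mitochondrial Glrx2 changed by -0.51 ± 0.21 (adjusted p = 0.0613) and by -0.12 ± 0.13 (adjusted p = 0.43) in its 2 probe sets, of which the first was a fall with the block (adjusted p = 0.000403).

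Of 14 probe sets of thioredoxin-like and thioredoxin-domain proteins, 6 fell at 96 h and none rose, against 30% and 8.52% of expressed probe sets. With so few probe sets, a difference from these shares was not tested. Txnl1, a thioredoxin-like protein bound to the proteasome, had ratios of 0.419, 0.978, 0.899, 0.753 and 0.347 in coculture, against 1.54, 2.51, 2.20, 2.09 and 1.06 in control, in probe set 1368936_at. The cocultures lay below all controls, narrowly for replicate 2, and the change was -1.52 ± 0.34 (adjusted p = 0.00373), the largest fall among the members. The other Txnl1 probe sets changed by -0.63 ± 0.27 (adjusted p = 0.0775), by -0.37 ± 0.16 (adjusted p = 0.0787) and by 0.05 ± 0.13 (adjusted p = 0.775). With the block the first and the second of these were falls (adjusted p = 6.38e-05 and 0.04).

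Txndc17 (deposited as Txnl5), a small cytosolic thioredoxin-related protein, had ratios of 0.513, 0.975, 0.857, 0.805 and 0.411 in coculture at 96 h, against 1.17, 1.72, 1.71, 1.75 and 0.945 in control. Each coculture was below its own control, while the control of replicate 5 lay among the cocultures. The change was -1.07 ± 0.30 (adjusted p = 0.0141). Among proteins of the endoplasmic reticulum that handle disulfides, Tmx1 (deposited as Txndc1) changed by -0.48 ± 0.17 (adjusted p = 0.0352), Pdia6 (Txndc7) by -0.37 ± 0.14 (adjusted p = 0.043), and Erp44 (Txndc4) by -0.47 ± 0.15 (adjusted p = 0.0278) and -0.29 ± 0.10 (adjusted p = 0.0391) in 2 probe sets. Tmx1 was 0.02 (adjusted p = 0.882) after cyclic loess. The remaining Erp44 probe set, 1376712_at, changed by 0.36 ± 0.14 (adjusted p = 0.0531), Txndc5 by -0.30 ± 0.12 (adjusted p = 0.0506) and Glrx3 (Txnl2), an iron-sulfur cluster carrier, by -0.29 ± 0.15 (adjusted p = 0.13). With the block that Erp44 probe set was a rise (adjusted p = 0.0238), and Txndc5 and Glrx3 were falls (adjusted p = 0.0185 and 0.00392). The 2 probe sets of Txndc9, which regulates a protein-folding chaperonin, changed by -0.14 ± 0.22 (adjusted p = 0.602) and -0.03 ± 0.18 (adjusted p = 0.895).

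Probe sets of 1 gene did not always move alike. At 96 h those of Prdx6, Hmox2, Txnl1 and Erp44 differed in sign, and those of Glrx in call, whereas both Sod2 probe sets fell. The positive changes of Hmox2 and Txnl1 were smaller than their standard errors, so these probe sets showed no rise. By the array's own design text, 25 member probe sets were built on full-length mRNA records, 22 on expressed sequence tags and 1 on another mRNA record. Of those on full-length mRNA 17 fell and none rose, with a median change of -0.70, and of those on expressed sequence tags 7 fell and 3 rose, with a median of -0.22. The 3 rising members were all built on expressed sequence tags, and which transcript ends these probe sets measure was not tested. These counts by design were not set against all expressed probe sets. They thus cannot be read as a trait of the members.

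**Figure D3:**
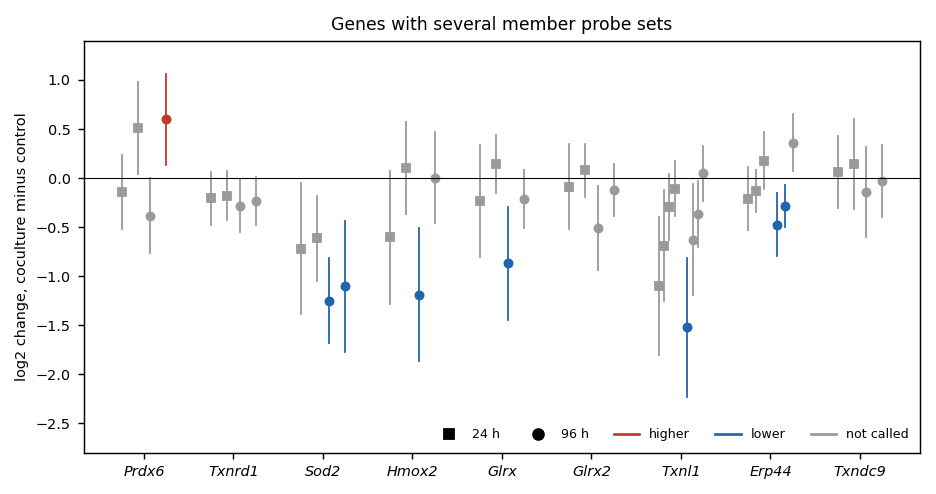
Change of each probe set (log2, coculture minus control, with the 95% interval) for the 9 genes with several member probe sets, as squares at 24 h and circles at 96 h. At 96 h Sod2 falls in both probe sets, while Prdx6, Hmox2, Txnl1 and Erp44 hold probe sets on both sides of 0. The Hmox2 and Txnl1 probe sets above 0 lie close to it.

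The members moved with the hybridisation controls across arrays. At 96 h the mean log2 ratio of the hybridisation controls was 0.70 ± 0.64 in coculture (SD, n = 5), against -0.63 ± 0.66 in control (p = 0.0238 in a two-sided exact permutation test), and at 24 h 0.32 ± 0.65 in coculture and -0.54 ± 0.67 in control (exact permutation p = 0.0794; the smallest that 252 splits allow is 0.0079). The median of the members was -0.71 to -0.02 in coculture and 0.01 to 0.28 in control at 96 h, and the arrays with high control signal had low members within the groups too. In the cocultures at 96 h the control signal was 1.03, -0.01, 0.30, 0.54 and 1.62 in replicates 1 to 5, and the median of the members -0.41, -0.02, -0.08, -0.18 and -0.71. In the controls at 96 h the control signal was -0.58, -1.03, -1.02, -1.02 and 0.50, and the median of the members 0.03, 0.28, 0.22, 0.22 and 0.01. Within both groups, the array with the highest control signal thus had the lowest members.

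With the mean of these controls as a covariate, 3 members were lower and 3 higher at 96 h (6.25% each). Of expressed probe sets 6.6% were lower and 9% higher, so the members were called no more often than the background. The 3 falls were Sod2 (1370172_at, -0.62, adjusted p = 0.00347), Txn2 (-0.67, adjusted p = 0.00242) and Gstm7 (-0.70, adjusted p = 0.0188), all among the 25 called without the covariate. Txnrd3 kept its rise (0.66, adjusted p = 0.0102), and Gstk1 (0.44, adjusted p = 0.0232) and Erp44 (1376712_at, 0.53, adjusted p = 0.0371) were called higher. The other 22 falls were not called, and Mgst3, Prdx3 and Prdx4 changed sign (0.10, 0.02 and 0.06, adjusted p = 0.719, 0.962 and 0.844), as did Prdx6 (1394574_at, -0.09, adjusted p = 0.764). Gpx1 kept -0.59 at an adjusted p of 0.0579. With both the block and the covariate no member was called at 96 h, where 0.0349% of expressed probe sets were. Since the control signal was higher in every coculture than in its paired control, its part and that of coculture cannot be told apart. This holds also for the members that kept their call.

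**Figure D4:**
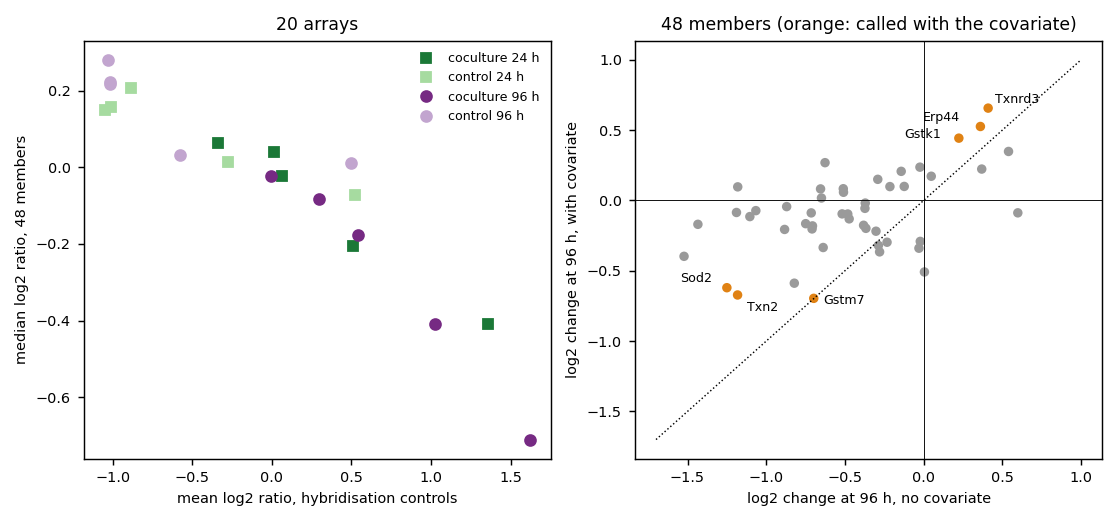
Left, median log2 ratio of the 48 members against the mean log2 ratio of the hybridisation controls in each of the 20 arrays, by group. Right, log2 change of each member at 96 h with the hybridisation controls as a covariate against the change without it, where the dotted line is equality and the 6 members called with the covariate are orange; most members lie nearer to 0 with the covariate, and Sod2, Txn2 and Gstm7 stay below it.

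Scaling moved the counts less. Giving all arrays equal medians put the median change at 96 h at -0.24 among the members and -0.018 among expressed probe sets, where it was -0.48 and -0.26 without it, with 17 members lower and 6 higher, against 22.1% and 16.2% of expressed probe sets. Cyclic loess gave 21 lower and 2 higher, against 23.4% and 10.7%, with 18 of the 21 falls among the 25; Gsto1 and Tmx1 then stood just above 0. Without the 4 arrays of replicate 5, 27 members were lower and 6 higher at 96 h, against 39.5% and 15.2% of expressed probe sets, and 8 were lower and 1 higher at 24 h, against 15.8% and 7.78%.

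Over time, from 24 h to 96 h, few members were called in the limma fit without the block. In coculture Gpx1 was the only member called, lower at 96 h (1 of 48, 2.08%, against 1.01% of expressed probe sets called lower): its ratios were 0.395, 0.529, 0.523, 0.549 and 0.568 at 96 h and 0.777, 1.24, 1.10, 1.18 and 0.790 at 24 h. All values at 96 h were below all at 24 h, and the change was -0.97 ± 0.17 (adjusted p = 0.00632). In control, Gpx1 had 0.595, 1.05, 0.941, 0.966 and 1.03 at 96 h and 1.04, 1.35, 1.33, 1.39 and 1.06 at 24 h, a change of -0.45 ± 0.17 (adjusted p = 0.728), called only with the block (adjusted p = 0.0315). After cyclic loess the fall of Gpx1 in coculture lost its call.

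No member was called over time in control with limma, where 0.227% of expressed probe sets were, and 5 had an unadjusted p under 0.05. With the block 4 were higher and 1 was lower, against 2.92% and 1.12% of expressed probe sets. Both Sod2 probe sets (0.49 and 0.66, adjusted p = 0.00676 and 0.016), Hmox2 (1367903_at, 0.49, adjusted p = 0.00269) and Txndc17 (0.35, adjusted p = 0.0259) rose with time in the controls. In coculture 9 members (18.8%) were lower over time with the block, against 15.2% of expressed probe sets. Between same-numbered controls, 15 members (31.2%) were higher and 6 (12.5%) lower at 96 h in all 5 pairs. Of expressed probe sets 17.9% and 10.9% were. Between same-numbered cocultures, 4 members (8.33%) were higher and 17 (35.4%) lower at 96 h in all 5 pairs, against 9.51% and 28.5%.

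The difference of the coculture effect between 96 h and 24 h passed the test for no member in the limma fit, where 4 had an unadjusted p under 0.05, all with a larger fall at 96 h, and 0.0291% of expressed probe sets were called. With the block 5 members (10.4%, against 4.39% of expressed probe sets called lower) had a larger fall at 96 h than at 24 h: Gclm by -0.72 (adjusted p = 0.0276), Txndc17 by -0.66 (adjusted p = 0.0051), Sod2 (1370172_at) by -0.64 (adjusted p = 0.0147), Txn2 by -0.62 (adjusted p = 0.0179) and Hmox2 (1367903_at) by -0.58 (adjusted p = 0.012). None of them was called with block and covariate together. The covariate without the block called none either, but neither did the fit without both.

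Other genes of glutathione and NADPH supply, NRF2 signalling and thiol or metal defence, were listed as 69, of which 42 were measured, with 1 value per gene. At 96 h 21 were lower and 3 higher, against 41.1% and 7.44% of all 8373 named genes, and at 24 h 4 and 2, against 7.58% and 2.78%, so the shares were near those of all genes. With the hybridisation covariate 7 were lower and 5 higher at 96 h, against 9.52% and 9.35%. Slc3a2, the heavy chain of the cystine and glutamate exchanger, changed by -1.37 ± 0.17 at 96 h and by -0.93 ± 0.17 at 24 h (adjusted p = 8.88e-06 and 0.00137). Chac1, which degrades glutathione and is induced by the integrated stress response, changed by -1.24 ± 0.18 and -1.09 ± 0.18 (adjusted p = 6.52e-05 and 0.000673). Both kept their calls at both times with the hybridisation covariate, where Slc3a2 changed by -0.89 and -0.62.

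Ccs, the copper chaperone of Sod1, changed by -1.20 ± 0.22 at 96 h and -0.93 ± 0.22 at 24 h (adjusted p = 0.000553 and 0.0116), and Blvra, the biliverdin reductase that acts after heme oxygenase, by -1.09 ± 0.18 at 96 h (adjusted p = 0.000195), and these calls held with the covariate. Mat2a, which makes S-adenosylmethionine, changed by -0.95 ± 0.28 at 24 h (adjusted p = 0.0344) and lost its call with the covariate (-0.57, adjusted p = 0.142). Selenop, the secreted selenium carrier that astrocytes make in brain, rose by 1.32 ± 0.24 at 96 h (adjusted p = 4e-04), and by 0.83 with the covariate (adjusted p = 0.0169). Nnt, the mitochondrial transhydrogenase that makes NADPH, rose at both times, by 0.63 ± 0.18 at 96 h and 0.74 ± 0.18 at 24 h (adjusted p = 0.00931 and 0.0144); with the covariate it was 0.096 at 96 h, not called (adjusted p = 0.61), and 0.39 at 24 h (adjusted p = 0.0183). The metallothionein Mt1 rose by 0.45 ± 0.16 at 96 h (adjusted p = 0.0288), and Idh2, another mitochondrial source of NADPH, by 0.66 ± 0.18 at 24 h (adjusted p = 0.0251). With the covariate neither was called, Mt1 at -0.035 (adjusted p = 0.839) and Idh2 at 0.48 (adjusted p = 0.0787). Keap1, the repressor of NRF2, changed by -0.60 ± 0.18 at 96 h (adjusted p = 0.0118) and lost its call with the covariate (adjusted p = 0.726).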

How the data were processed

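Biotin-labelled RNA of 20 cultures was hybridised to Affymetrix rat arrays, 1 array per culture. Per the file headers the authors ran RMA over the 20 arrays and deposited each gene as a linear ratio to its median. The submitters' processing notes name RMA and MAS5; for versions and the chip definition, nothing is given in the sources used here. As a check of the scale, the median ratio was 1 within 0.001 for 31069 of 31099 probe sets. A deposited table of 17243 expressed probe sets gave symbols and the authors' average ratio per group, which equalled geometric means of the arrays within 0.000939. No signal over background can be read from ratios, and RMA forces 1 distribution on all arrays, so a change in total RNA is not visible. No 2 arrays were identical.

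The log2 of each ratio was modelled in limma 3.58.1 under R 4.3.3 (lmFit, eBayes), with 1 mean per group, 16 residual degrees of freedom and Benjamini-Hochberg adjustment over 31042 probe sets, without 57 array controls. The pipeline was tested on simulated data. Symbols were updated by Entrez identifier through RefSeq (GRCr8), which renamed 10 member probe sets. Members, gene lists and marker lists were chosen with earlier results of these data known. Named in the text are the 8 largest rises and 8 largest falls among called members per coculture and time effect, up to 5 per direction for the difference between times, the member with the smallest p of each role group, all probe sets of a gene with several, and up to 4 pathway genes per direction and coculture effect; other members with values were chosen after these were seen.

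Same-numbered arrays deviated together: residuals of the group means correlated at 0.243 or more in 30 pairs of equal number (median 0.524), against a median of -0.23 for unequal numbers, and for 15 of 20 arrays the nearest array carried the same number. The pairing comes from the replicate numbers in the labels. Alternatives were this block as a fixed or random term, the hybridisation controls as a covariate, only the groups compared, equal array medians, cyclic loess, array weights, a robust prior, a floor on ratios, the expressed probe sets alone, the mean over the probe sets of a gene, and fits without each array; the fit with block and covariate together and the fit without replicate 5 were added after seeing the data.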

Additional observations from a re-analysis of the deposited data

Results flagged for a closer look

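In 15 named members and 4 groups each, 60 sets of 5 arrays were examined for an array far from the others, and 2 were found. Chance gives about 1 in 20 sets, so 2 of 60 is no more than chance gives. Both were Gpx1 in replicate 1 at 96 h. In coculture its ratio was 0.395, against 0.523 to 0.568 in the other replicates. In control its ratio was 0.595, against 0.941 to 1.05 in the other replicates.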

How the results depend on the processing

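The counts of called members depended on how the pairing and the hybridisation signal were treated. They are given here for the members alone, while the settings also moved the calls over all expressed probe sets. At 24 h 3.48% of expressed probe sets were lower without the block and 27.2% with it. The counts in this section are thus no result about the members in particular. With the replicate block, called members numbered 19 at 24 h (1 without it), 5 over time in control (0), 9 over time in coculture (1) and 5 for the difference between the effects (0); as a random term the block gave 17, 2, 7 and 2. The block ended the call of none of the 17 named results. With the hybridisation covariate 6 members were called at 96 h (28 without it), 2 over time in control and 6 over time in coculture; with block and covariate together 0 at 24 h, 0 at 96 h and 3 over time in control. Array weights gave 20 at 24 h, 8 over time in control and 9 over time in coculture. Equal array medians gave 2 at 24 h and 2 over time in coculture, cyclic loess 2 and the mean per gene 2 over time in coculture, and a floor on ratios 2 at 24 h and 0 over time in coculture. Fitting only the groups compared gave 0 over time in coculture. Without replicate 5 there were 9 at 24 h and 3 over time in coculture. Leaving out single arrays gave 1 to 7 at 24 h (7 without the control of replicate 5), 16 to 34 at 96 h, 0 over time in control in each such fit, 1 to 2 over time in coculture (2 without the coculture of replicate 2 at 96 h or of replicate 5 at 24 h) and 0 for the difference between effects. The count at 96 h was 16 without the control of replicate 2, 3 or 4 or the coculture of replicate 5, and 17 without the coculture of replicate 1. With the covariate the change at 96 h was -0.088 for Prdx6 (1394574_at) and 0.096 for Mgst3, and with block and covariate it was 0.19 for Gclc. The cause of these changes was not tested. Signal over background is unknown here.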
